A study of Mus musculus with 11 samples.

Results

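The genes described are 38 translation initiation and elongation factors, chosen by symbol from a list of named subunits and factors, and 1 transcript stands for each gene, that of highest mean level in the size-gated libraries. All 38 were found among the 24064 genes of the gated files, and all 38 were among the 10619 genes that passed the filter on low values and were tested. They were measured in haematopoietic stem cells (HSCs), the cells that give rise to every blood lineage, from the livers of wild-type C57BL/6 mice on postnatal day 0 (P0). The cells had been sorted as lineage-negative, Sca1+, cKit+, CD150+ and CD48-, and RNA of 100 to 200 of them was turned into each library by Smart-seq2, a protocol that amplifies full-length cDNA from very little input. The FSC-A High group (4 libraries) and the FSC-A Low group (3 libraries) differ by forward scatter area, a flow cytometry reading that is widely used as a proxy for cell size, while a further 4 libraries came from HSCs with no scatter gate in their labels (unfractionated HSCs). The labels name no transgene, deletion or treatment in any group. Whether replicates are separate animals is not in the labels, so a p-value here measures the spread between libraries, which may be only technical.

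Initiation factors bring the initiator tRNA and the small ribosomal subunit to an mRNA and find its start codon, and elongation factors then deliver each aminoacyl-tRNA and move the ribosome along. The eIF2 complex carries the initiator tRNA as a GTP-bound complex and is recharged by eIF2B, eIF3 is the large scaffold on the small subunit, and eIF4F binds the cap and unwinds the leader of the mRNA. Many mRNAs of elongation factors, and some of eIF3, belong to the TOP mRNAs, which start with a C followed by a run of pyrimidines and whose translation is tied to mTORC1, a kinase complex that senses nutrients and growth signals. In blood-forming tissue, HSCs are known for a low rate of protein synthesis compared with the progenitors they give rise to.

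The gated values were taken as RPKM (reads scaled for transcript length and sequencing depth), with an estimated 65.7 M to 85.2 M reads per FSC-A High library and 69.4 M to 98.2 M per FSC-A Low library. The unfractionated libraries held 21.3 M to 30.9 M reads and came in another unit, so no test was made across the 2 sets. Of 10 HSC marker genes, none was under 1 RPKM in all gated libraries, and their summed level was 423 to 495 RPKM in FSC-A High and 681 to 791 RPKM in FSC-A Low. Cd48, against which the cells had been sorted, was at most 3.32 RPKM in the gated libraries and at most 30.2 CPM in the unfractionated ones. The summed level of 6 erythroid markers was 85.6 to 218 RPKM in FSC-A High and 54.1 to 80.8 in FSC-A Low, nearly all of it from the globin gene Hbb-bt, while 5 of the 6 stayed under 1 RPKM and Slc4a1 was at 0 in every gated library. Macrophage and monocyte markers summed to 182 to 277 RPKM against 163 to 170, mostly from Lyz2, and megakaryocyte markers to 62.8 to 96.2 against 46.4 to 59.5. Hepatocyte markers summed to 14.6 to 27.2 RPKM in FSC-A High and 9.93 to 19.3 in FSC-A Low, and Cd3e and Il7r of the lymphoid list were at 0 throughout. The part of these differences in the results below was not tested. In such bulk libraries fewer cells of a type and less RNA per cell cannot be told apart.

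Of the 38 translation factors, 13 were higher in FSC-A High and 4 were lower, while 21 did not pass (limma on log2(RPKM + 1), Benjamini-Hochberg adjusted p below 0.05 over all genes tested). Among all genes tested, 15.6% were called higher and 11.7% lower. The calls were divided by complex: 7 of 12 eIF3 genes and 5 of 7 elongation genes were higher, 2 of 10 genes of eIF4F and its partners were lower and none of them higher, and none of the 6 genes of eIF1, eIF1A, eIF2 and eIF2B passed. The elongation genes are counted with Eef1e1, whose product sits in the multi-tRNA synthetase complex. The median log2 difference (FSC-A High minus FSC-A Low, as in every value below) was 0.56 for eIF3, 0.86 for the elongation factors and -0.34 for eIF4F and partners, against -0.04 for all genes tested. Over all members it was 0.18, with a range from -1.46 for Eif4a1 to 1.43 for Eif3k. In 14 members every FSC-A High library was above every FSC-A Low library and in 7 every one was below, while 17 overlapped. Such separation upwards was seen in 18.9% of all genes tested and downwards in 16.0%.

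**Figure D1:**
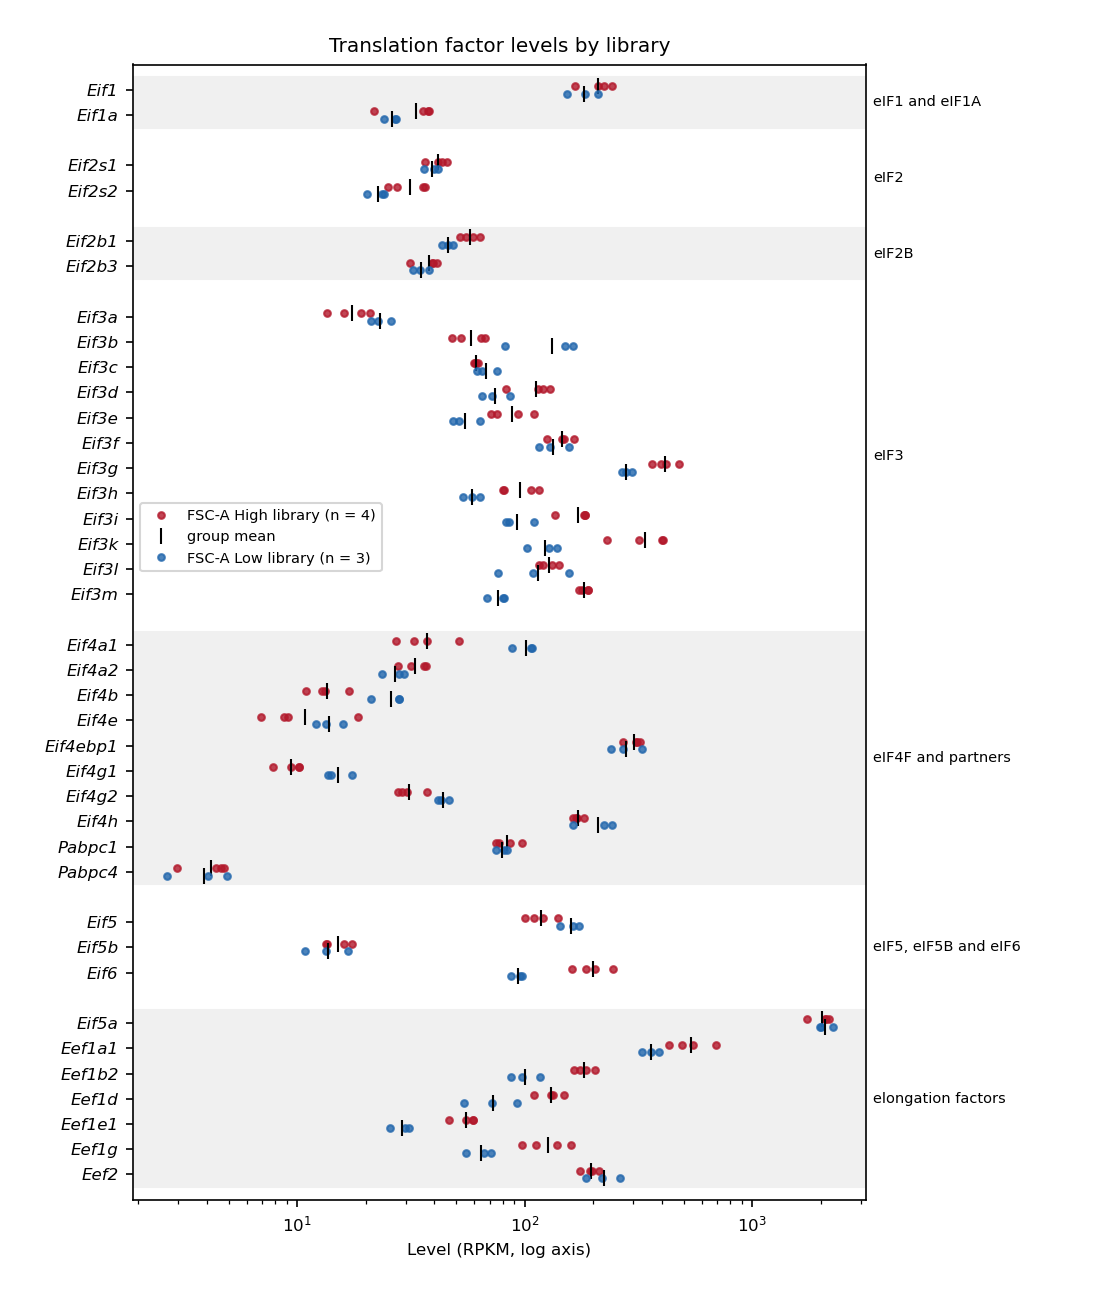
Level of each of the 38 translation factors in RPKM (log axis), with 1 point per library for FSC-A High (red, 4 libraries) and FSC-A Low (blue, 3 libraries) and a vertical bar at each group mean. Eif5a lies furthest to the right in both groups, Eif3k, Eif3m and Eif6 are separated upwards in FSC-A High, and Eif4a1 and Eif3b are separated downwards.

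Transcript length went along with the differences. Across the 38 members the log2 difference fell with transcript length (Spearman's rho -0.687, n = 38 genes measured in the same 7 libraries), and it did so across 9899 genes with a known length (rho -0.451). The median length was 1702 nt for the eIF3 genes, 1864 nt for the elongation genes and 2772 nt for eIF4F and partners. After a spline over length and GC content had been subtracted library by library (below, the length and GC correction), 6 members were higher and 3 lower, where 9.08% of all genes were called higher and 8.75% lower. The corrected differences of the 38 members still fell with transcript length, though less (Spearman's rho -0.291). The median then became 0.14 for eIF3, 0.52 for the elongation factors and -0.14 for eIF4F and partners. Of the 17 calls, 8 were kept, those of Eif3k, Eif3m, Eif3b, Eif4a1, Eif6, Eef1b2, Eef1e1 and Eef1g.

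**Figure D2:**
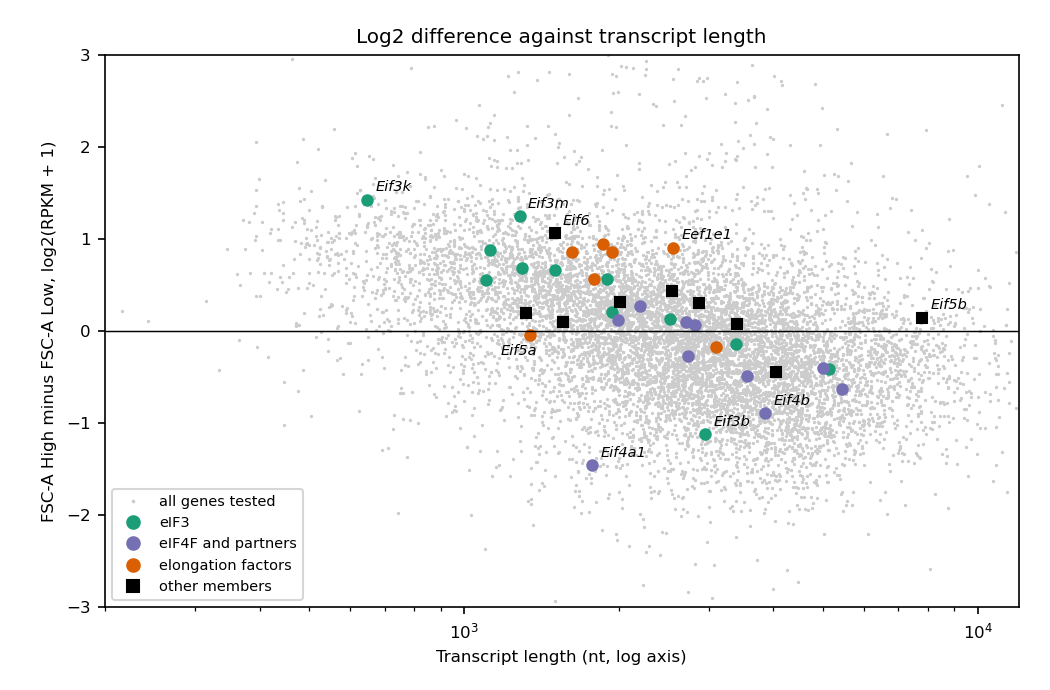
Log2 difference between FSC-A High and FSC-A Low (vertical axis, log2(RPKM + 1)) against transcript length in nt (log axis) for the genes tested that have a length and lie within the axes (grey) and for the translation factors by complex. The grey cloud and the members both run downwards to the right, and Eif4a1, at 1774 nt and -1.46, lies near the lower edge of the cloud at its length.

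The scale of the libraries mattered as well. The gene values summed to 409140 to 439490 RPKM in FSC-A High and 333690 to 349630 in FSC-A Low. When each library was scaled to that total, the median over all genes went from -0.04 to -0.31, and higher genes made up 30.02% of the calls in place of 57.1%. On that scale 8 members were higher and 11 lower, with a median of -0.13, where 9.23% of all genes were called higher and 21.5% lower. The higher calls of Eif3d, Eif3e, Eif3g, Eif3h and Eef1a1 were lost on that scale, and Eif3a, Eif3c, Eif4g1, Eif4g2, Eif4h, Eif5a and Eef2 were called lower. No called member changed its sign under that or any other scaling tried. The medians of eIF1 with eIF1A, of eIF2 and of eIF2B, all positive as deposited, became -0.05, -0.05 and -0.10. With a spline over expression level subtracted in each library instead, 3 members were higher (Eif3k, Eif3m and Eef1e1) and 7 lower (Eif3b, Eif4a1, Eif4b, Eif5, Eif4g2, Eif4h and Eif5a), where 9.04% of all genes were called higher and 9.94% lower.

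**Figure D3:**
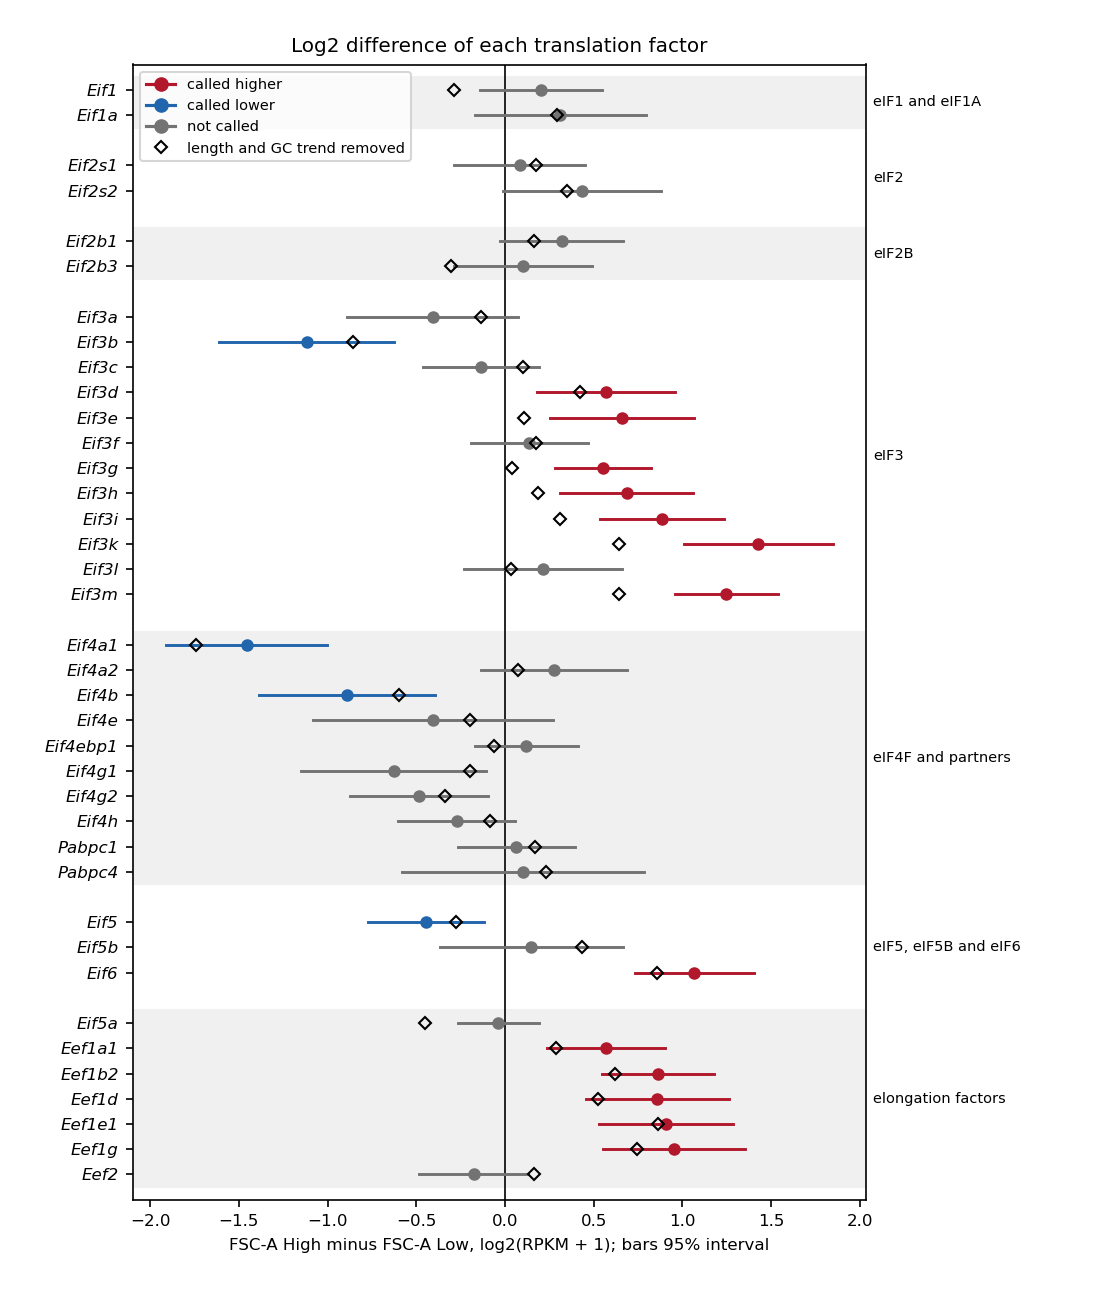
Log2 difference of each translation factor (FSC-A High minus FSC-A Low) with its 95% interval, coloured by call, and with an open diamond for the value after the length and GC correction. Calls upwards sit in eIF3, Eif6 and the elongation factors, calls downwards at Eif3b, Eif4a1, Eif4b and Eif5, and most diamonds of eIF3 lie closer to 0 than the points.

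The start of a transcript is what defines a TOP mRNA, so the annotated start sites of the factors were read. Annotated starts were not set against measured 5′ ends, so a run in these windows is not shown to be the first bases of an mRNA. RefSeq promoters (build GRCm38.p6) were used for 27 of the 38 members. A member outside these 27, such as Eif1a, may still have an annotated promoter. Each line gives the strand that is transcribed, from 20 bases before to 30 bases after the annotated start, with the longest run of pyrimidines in the window in capitals. Shown are 6 of the 7 members with a run of at least 8 pyrimidines and, for comparison, the 3 members with the largest falls. Eef1a1, Eef2, Eif3f and Eif4b belong to the known TOP mRNAs.
Eef1a1 (chr9:78481695-78481744, minus strand): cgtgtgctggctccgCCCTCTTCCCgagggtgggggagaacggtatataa
Eef2 (chr10:81176611-81176660, plus strand): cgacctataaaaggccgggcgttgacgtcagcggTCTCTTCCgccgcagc
Eif3f (chr7:108934395-108934444, plus strand): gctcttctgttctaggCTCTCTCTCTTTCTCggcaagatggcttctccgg
Eif3k (chr7:28981859-28981908, minus strand): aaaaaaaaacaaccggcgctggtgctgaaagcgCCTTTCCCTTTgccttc
Eif3l (chr15:79075203-79075252, plus strand): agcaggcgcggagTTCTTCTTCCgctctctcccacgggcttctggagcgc
Eif3m (chr2:105016998-105017047, minus strand): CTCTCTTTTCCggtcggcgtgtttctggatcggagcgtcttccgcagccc
Eif4a1 (chr11:69672394-69672443, minus strand): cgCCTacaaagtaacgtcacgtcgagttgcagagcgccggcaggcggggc
Eif3b (chr5:140419285-140419334, plus strand): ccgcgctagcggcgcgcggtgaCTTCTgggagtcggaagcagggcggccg
Eif4b (chr15:102073753-102073802, plus strand): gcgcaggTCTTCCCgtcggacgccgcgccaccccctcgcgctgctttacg

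An unbroken run of at least 8 pyrimidines on the transcribed strand was found in 7 of the 27 members used, or 25.9%. In 50-base windows of the 8389 tested genes with a promoter the share was 21.2%. The run begins 4 to 7 bases before the annotated start in Eef1a1, Eif3f and Eif3l and spans it. It begins at bases 14 and 15 of the annotated transcript in Eif3k and Eef2, and 20 bases before the start in Eif3m. In Eef1a1 the letters TATATAA follow the run, from base 24 of the annotated transcript, whereas a TATA box is known to lie ahead of the start it directs. TATATAA or TATAAAA on the transcribed strand was found in the windows of 3 of the 27 members (Eef1a1, Eef2 and Eif1), and in 0.346% of the tested genes with a promoter. Only these forms, both present in the members' own windows, were searched, and the windows reach only 20 bases before the start. The shares are therefore not rates of TATA boxes. Eif4e holds a run only at the downstream of its 2 annotated starts, and which of them the measured transcript uses was not determined. Of the 7 members with a run, 3 were called higher (Eef1a1, Eif3k and Eif3m) and 4 were not called. Of the 20 without it, 4 were higher and 4 lower. The share of all genes tested was 15.6% higher and 11.7% lower. The medians with and without a run were 0.21 and 0.09, and after the length and GC correction 0.18 and 0.06.

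The hexamer CACGTG, the preferred E-box of Myc and Max and of related factors, was searched from 250 bases before to 50 after each start. It reads the same on both strands. It was present in 9 of the 27 members (33.3%), and in 12% of the tested genes with a promoter. Windows of 20 bases around it are shown for the 2 most divergent members that hold it and for 2 members of the cap-binding group, with the hexamer in capitals. It starts 44 bases before the annotated start in Eif3k, 189 before in Eif4a1, 54 before in Eif4g1 and 96 before in Eif4h. Eif4g1 holds a second one from base 16 of the annotated transcript.
Eif3k: aggaaatCACGTGgtagaca
Eif4a1: gcctccgCACGTGtaaaggt
Eif4g1: tgggtgtCACGTGatggggc
Eif4h: gccgcacCACGTGggccgca

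The members with the hexamer were Eef2, Eif3a, Eif3f, Eif3k, Eif4a1, Eif4e, Eif4g1, Eif4h and Eif5a. In Eif4e and Eif5a it lies only near annotated starts downstream of the 5′ end of the annotated gene. Of the members used, 26 have a promoter within 20 bases of that end, and 7 of these hold it. Which annotated start the measured transcript uses was not determined. Of the 9, Eif3k was called higher, Eif4a1 lower and 7 were not called (median -0.27). Of the 18 without it, 6 were higher and 3 lower (median 0.24). The share of all genes tested was 15.6% higher and 11.7% lower. A match in these windows is a description of the sequence and was not tested as a binding site.

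Eif1, whose product guards start codon choice on the small subunit, stood at 209, 223, 242 and 166 RPKM in FSC-A High and at 154, 209 and 184 RPKM in FSC-A Low. The groups overlapped, and the log2 difference was 0.20 (95% interval -0.14 to 0.55). Eif1a, which works beside it in scanning, stood at 35.5, 37.5, 21.7 and 37.8 RPKM against 27.0, 26.8 and 24.1. There 3 of 4 FSC-A High libraries were above all FSC-A Low libraries and replicate 3 was below them (0.31, interval -0.17 to 0.79). Eif1a has a close relative on the X chromosome, Eif1ax, with which reads could be shared.

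The 2 subunits of eIF2 on the list did not pass. Eif2s1, the alpha subunit that stress kinases phosphorylate, ranged from 36.3 to 45.7 RPKM in FSC-A High and from 36.2 to 41.5 RPKM in FSC-A Low (0.08, interval -0.29 to 0.45). Eif2s2, the beta subunit, stood at 25.2, 27.4, 36.3 and 35.7 RPKM against 24.0, 23.5 and 20.2. All FSC-A High libraries of Eif2s2 were above all FSC-A Low libraries, but its log2 difference of 0.43 did not pass (limma adjusted p = 0.139, interval -0.01 to 0.88). The gamma subunit is encoded by the near-identical genes Eif2s3x and Eif2s3y, among which reads can be split. Eif2s3x was at -0.61 and Eif2s3y at 0.25, and neither was called. The level of Eif2s3x was low, with a mean of 0.95 RPKM in FSC-A High and 1.98 RPKM in FSC-A Low. Eif2s3y, on the Y chromosome, was at 0.34 CPM in unfractionated replicate 2 and at 130, 89.9 and 79.7 CPM in the others. The part of the sex of the animals in these values was not tested.

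For eIF2B, the exchange factor of eIF2, Eif2b1 (alpha subunit) stood at 63.8, 59.2, 55.4 and 51.8 RPKM in FSC-A High and at 43.3, 48.4 and 45.8 in FSC-A Low. The groups did not overlap, yet the difference of 0.32 missed the threshold (adjusted p = 0.158 by limma, interval -0.03 to 0.66). Eif2b3 (gamma subunit) overlapped, with 31.4 to 41.2 RPKM against 32.4 to 38.1 (0.10, interval -0.29 to 0.49). The other subunits of the complex, taken from a second list, did not move alike. Eif2b4 (delta) was higher, at 54.4 ± 8.995 RPKM (SD, n = 4) against 26.7 ± 4.17 (n = 3), a gap of 0.99 in log2 (SE 0.20, limma adjusted p = 0.00260) that was also 0.99 after the length and GC correction. Eif2b2 (beta) was called at 0.72 (limma adjusted p = 0.0476) and Eif2b5 (epsilon, the catalytic subunit) was at -0.45 and not called. After the correction Eif2b2 was at 0.45 and not called (adjusted p = 0.255), and FSC-A High replicate 1, at 34.1 RPKM, lay below FSC-A Low replicates 1 and 2, at 38.4 and 34.9. The call of Eif2b2 was also lost when FSC-A High replicate 2, 3 or 4 or FSC-A Low replicate 2 or 3 was left out, with values from 0.49 to 0.81.

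In eIF3, 7 genes were higher, 1 was lower and 4 did not pass. Its mean log2 level over the 12 genes was 6.71 to 6.91 in the FSC-A High libraries and 6.42 to 6.47 in the FSC-A Low libraries, without overlap. The complex is built on an octamer of subunits with PCI or MPN domains (a, c, e, f, h, k, l and m), to which b, d, g and i are attached. In the octamer 4 of 8 genes were higher and none lower (median 0.44). Outside it 3 of 4 were higher and Eif3b was lower (median 0.56). After the length and GC correction, 2 genes of the complex were higher, Eif3k and Eif3m, and Eif3b was lower.

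Eif3k, the smallest subunit of the octamer, had the largest rise of the 38 genes. It stood at 230.3, 402, 316 and 403 RPKM in FSC-A High and at 103, 138 and 128 RPKM in FSC-A Low. The lowest FSC-A High library was above the highest FSC-A Low library, and the log2 difference was 1.43 (SE 0.19, limma adjusted p = 2.2e-04). With a transcript of 647 nt it is also the shortest member, and the difference was 0.64 after the length and GC correction (adjusted p = 0.0223).

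Eif3m, an octamer subunit that neighbours Eif3f and Eif3h, stood at 179, 189.5, 174 and 189.6 RPKM in FSC-A High and at 68.4, 80.9 and 80.5 RPKM in FSC-A Low. It varied little within either group, and the difference was 1.25 (SE 0.13, limma adjusted p = 4.6e-05), or 0.64 after the length and GC correction. Its call held in all 22 refits with another scaling, pseudocount, filter, transcript choice, weighting, trend correction, block or set of libraries, where it ranged from 0.63 to 1.29.

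Eif3i, a WD40 subunit on the periphery, stood at 136, 182, 183 and 184 RPKM against 85.2, 82.4 and 109. The groups did not overlap (0.89, SE 0.16, limma adjusted p = 0.00155). Eif3h, an MPN subunit, stood at 106, 80.1, 115 and 81.3 RPKM against 58.6, 53.5 and 63.6. FSC-A High replicates 2 and 4 lay closer to the FSC-A Low libraries than the other two did, still without overlap (0.68, SE 0.17, limma adjusted p = 0.0108). Eif3g, an RNA-binding subunit and the most abundant of eIF3 in both gated groups, stood at 417, 477, 395 and 362 RPKM against 295, 267 and 278. Its groups were separate too (0.55, SE 0.12, limma adjusted p = 0.00580). After the length and GC correction, none of these 3 was called (0.31, 0.18 and 0.04), and Eif3g became -0.031 with a trend over expression level removed.

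Eif3e, a PCI subunit, stood at 70.8, 75.4, 93.6 and 110.1 RPKM against 63.7, 51.3 and 48.5. All FSC-A High libraries were higher (0.66, SE 0.19, limma adjusted p = 0.0195). Eif3d, a subunit that can itself bind the cap of some mRNAs, stood at 82.45, 129, 114 and 121 RPKM against 71.5, 86.5 and 65.0. Here FSC-A High replicate 1 was below FSC-A Low replicate 2, so the groups overlapped (0.57, SE 0.18, limma adjusted p = 0.0330). Neither call held when certain single libraries were left out. That of Eif3e was lost without FSC-A High replicate 3 (0.62, adjusted p = 0.0567), FSC-A Low replicate 2 (0.62) or FSC-A Low replicate 3 (0.58). That of Eif3d was lost without FSC-A High replicate 2, 3 or 4 or FSC-A Low replicate 1 or 3, with values from 0.48 to 0.55.

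Eif3b, a scaffold subunit that binds Eif3a, Eif3g and Eif3i, was the exception in the complex. It stood at 52.4, 48.1, 67.1 and 64.25 RPKM in FSC-A High and at 81.6, 149.9 and 162 RPKM in FSC-A Low. The groups did not overlap, though FSC-A Low replicate 1 was well below the other two. The difference was -1.12 (SE 0.23, limma adjusted p = 0.00317) and -0.86 after the length and GC correction, and its call held in all 22 refits. The ratio of Eif3m to Eif3b was 3.22 ± 0.585 in FSC-A High (SD, n = 4) and 0.625 ± 0.186 in FSC-A Low (n = 3).

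The other 4 eIF3 genes were not called. Eif3a, the largest subunit, stood at 19.1, 16.0, 13.5 and 20.8 RPKM against 21.1, 22.6 and 25.7. All FSC-A High libraries were lower, by a margin that was small for replicate 4 (-0.41, interval -0.89 to 0.07). Eif3c ranged over 59.9 to 62.5 RPKM against 61.5 to 75.6 (-0.13, interval -0.46 to 0.19), Eif3f over 125 to 165 against 115 to 156 (0.14, interval -0.19 to 0.47) and Eif3l over 115 to 142 against 76.6 to 157 (0.21, interval -0.23 to 0.66). Those 3 overlapped between the groups. With scaling to the library total, Eif3a (-0.71) and Eif3c (-0.44) were called lower. The loosely bound subunit j is encoded by Eif3j1 and Eif3j2, whose deposited values were nearly the same in each gated library. Both were at -0.31 and not called. In the unfractionated libraries Eif3j1 was at 0 CPM throughout and Eif3j2 at most at 0.068 CPM. The part of read counting in this difference between the sets of files was not tested.

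**Figure D4:**
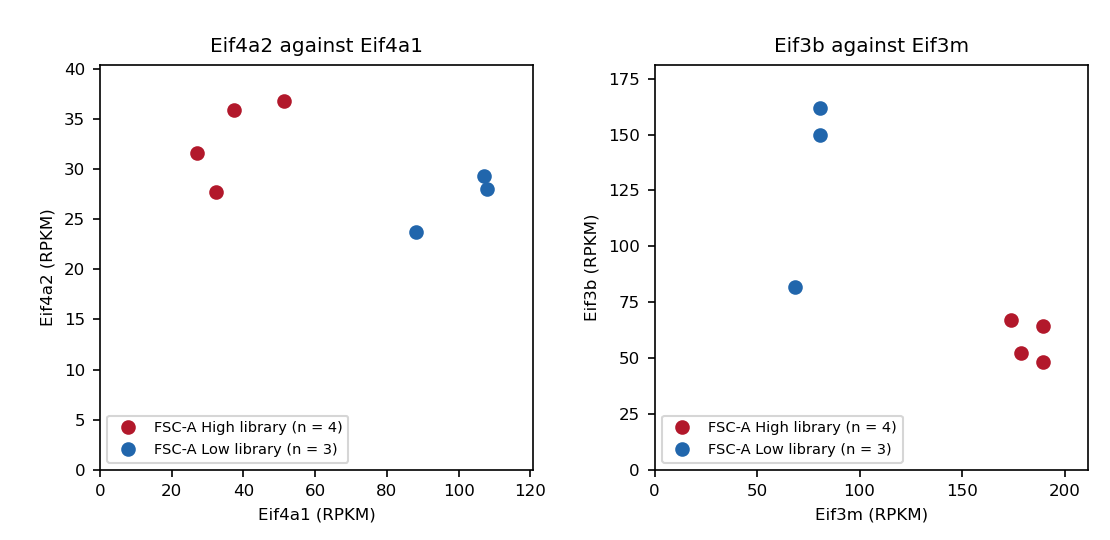
Levels of Eif4a2 against Eif4a1 (left) and of Eif3b against Eif3m (right), in RPKM on linear axes from 0, with 1 point per library. The FSC-A High (red) and FSC-A Low (blue) libraries form separate clouds in both plots; on the left they are separated along Eif4a1 and not along Eif4a2.

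In eIF4F and its partners, 2 of 10 genes were lower and 8 did not pass. The mean log2 level over the 10 genes was 4.95 to 5.20 in FSC-A High and 5.26 to 5.51 in FSC-A Low, without overlap. Eif4a1, which encodes the main DEAD-box helicase of eIF4F, had the largest fall of the 38 genes. It stood at 27.1, 32.5, 37.3 and 51.2 RPKM in FSC-A High and at 108, 107 and 88.1 RPKM in FSC-A Low, so that even the highest FSC-A High library was far below the lowest FSC-A Low library. The difference was -1.46 (SE 0.21, limma adjusted p = 3.3e-04), and -1.74 after the length and GC correction. Over all 22 refits it stayed called, between -1.89 and -1.32.

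Eif4a2, which encodes a closely similar helicase, did not share that fall. It stood at 31.6, 27.7, 35.9 and 36.8 RPKM in FSC-A High and at 28.1, 29.3 and 23.7 RPKM in FSC-A Low, with overlapping groups (0.28, interval -0.14 to 0.69). The ratio of Eif4a1 to Eif4a2 was 1.12 ± 0.225 in FSC-A High, with a range from 0.858 to 1.39, and 3.74 ± 0.0972 in FSC-A Low, with a range from 3.65 to 3.84. How reads of the shared sequence of the 2 genes were counted is not given in the sources used here. Among all genes, Eif4a1 was rank 2391 for FSC-A High, 725 for FSC-A Low and 123 for the unfractionated libraries. The last came in another unit. Eif4a2 was rank 2611, 2917 and 684 in the same order, and Eif4ebp1 went the other way, at 235, 147 and 1054. The part of read counting in these ranks was not tested.

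Eif4b, whose product stimulates the helicase and whose mRNA is a TOP mRNA, stood at 13.2, 10.9, 17.0 and 12.8 RPKM against 28.1, 27.9 and 21.2. The groups were separate (-0.89, SE 0.23, limma adjusted p = 0.0121), but after the length and GC correction the value was -0.59 and did not pass (adjusted p = 0.0615). Eif4h, a helicase cofactor related to Eif4b, overlapped at 164 to 183 RPKM against 162 to 242 (-0.27, interval -0.60 to 0.05). Without FSC-A Low replicate 3, the lowest of that group, it was called at -0.45 (adjusted p = 0.0444).

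The scaffold genes lay below in FSC-A High without passing the test. Eif4g1, which bridges cap-binding protein, helicase and eIF3, stood at 10.2, 10.2, 7.79 and 9.37 RPKM against 13.6, 14.1 and 17.5 (-0.63, adjusted p = 0.0711). Eif4g2, a related scaffold that does not bind the cap-binding protein, stood at 37.3, 27.8, 28.9 and 30.3 RPKM against 46.5, 42.8 and 41.6 (-0.48, adjusted p = 0.0629). The groups did not overlap in either gene. Both were called lower with scaling to the library total, with upper quartile scaling, with no filter and with the transcripts of each gene summed. After the length and GC correction neither was called (-0.20 and -0.34). Eif4g2 was also called with the trend over expression level removed (-0.66). Without FSC-A High replicate 1, its highest FSC-A High library, Eif4g2 was called too, at -0.57 (adjusted p = 0.0368).

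Eif4e, the cap-binding protein itself, stood at 6.91, 9.15, 8.75 and 18.5 RPKM in FSC-A High and at 13.4, 16.0 and 12.1 in FSC-A Low. FSC-A High replicate 4 was the highest of all 7 and the other 3 were below FSC-A Low, which gave a wide interval (-0.41, -1.08 to 0.27). Eif4ebp1, the inhibitor that mTORC1 releases from the cap-binding protein, was far more abundant and overlapped at 270.2 to 321 RPKM against 239.9 to 327.5 (0.12, interval -0.17 to 0.41). The poly(A)-binding protein genes also overlapped, Pabpc1 at 74.5 to 97.04 RPKM against 74.5 to 83.3 (0.06, interval -0.27 to 0.39) and Pabpc4, the lowest member in all 3 groups, at 2.96 to 4.76 against 2.66 to 4.92 (0.10, interval -0.58 to 0.79).

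Among the factors of subunit joining, Eif6, which keeps the large subunit from joining too early and also acts in its maturation, was higher. It stood at 161, 186, 203 and 243.5 RPKM in FSC-A High and at 94.8, 97.5 and 87.3 RPKM in FSC-A Low. The groups were far apart (1.07, SE 0.15, limma adjusted p = 3.4e-04), and the value was 0.86 after the length and GC correction (adjusted p = 0.00390). With the trend over expression level removed it was 0.63 and not called. Eif5, the GTPase activator of eIF2, stood at 139, 120.0, 109.5 and 100.2 RPKM against 162, 143 and 173. All FSC-A High libraries were lower, with replicate 1 just under the lowest FSC-A Low library (-0.45, SE 0.15, limma adjusted p = 0.0433). That call was lost without FSC-A High replicate 2, 3 or 4 or FSC-A Low replicate 1 or 3, with values from -0.46 to -0.38, and after the length and GC correction (-0.28). Eif5b, the GTPase of subunit joining, overlapped at 13.4 to 17.3 RPKM against 10.9 to 16.7 (0.15, interval -0.37 to 0.66).

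Of the 7 genes grouped as elongation factors, Eef1e1 among them, 5 were higher and 2 did not pass. Their mean log2 level was 7.66 to 7.97 in FSC-A High and 7.18 to 7.43 in FSC-A Low, without overlap. Eef1a1, the factor that delivers aminoacyl-tRNA to the ribosome, stood at 428, 492, 549 and 692 RPKM against 391, 358 and 327. The groups were separate (0.57, SE 0.15, limma adjusted p = 0.0150). The call was lost without FSC-A Low replicate 3 (0.51, adjusted p = 0.0607) and after the length and GC correction (0.28), and the value was -0.051 with the trend over expression level removed. Eef1a1 has many near-identical pseudogenes, so its level is uncertain where reads could be split among copies.

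The subunits of the exchange factor that recharges eEF1A with GTP rose together. Eef1b2 (beta, the exchange subunit) stood at 165, 203, 175 and 185 RPKM in FSC-A High and at 96.96, 117 and 87.1 in FSC-A Low (0.86, SE 0.15, limma adjusted p = 9.9e-04). Eef1d (delta, the other exchange subunit) stood at 109, 149, 130.3 and 133 RPKM against 54.2, 92.04 and 72.1 (0.86, SE 0.19, limma adjusted p = 0.00469). Eef1g (gamma, the structural subunit) stood at 96.8, 112, 139 and 159.7 RPKM against 66.3, 71.0 and 55.3 (0.95, SE 0.19, limma adjusted p = 0.00241). In none of the 3 did the groups overlap, and the folds of the means lay between 1.79 and 1.98. After the length and GC correction Eef1b2 and Eef1g were called (0.62 and 0.74) and Eef1d was not (0.52, adjusted p = 0.0615). With the trend over expression level removed none of the 3 was called (0.42, 0.48 and 0.59 in the same order as above).

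Eef1e1, also known as AIMP3, is a relative of these subunits that sits in the multi-tRNA synthetase complex. It stood at 46.5, 55.1, 59.0 and 59.1 RPKM in FSC-A High and at 25.7, 30.9 and 29.7 RPKM in FSC-A Low. The groups were separate (0.91, SE 0.17, limma adjusted p = 0.00219), and it was the elongation member whose value moved least under the length and GC correction (0.86). Its call held in all 22 refits, between 0.60 and 0.99.

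Eef2, the translocase, was not called. It stood at 176, 198, 194 and 212 RPKM against 261, 219 and 186.5, with overlapping groups (-0.18, interval -0.48 to 0.13). With scaling to the library total it was called lower at -0.49 (adjusted p = 0.0195). The ratio of Eef1a1 to Eef2 was 2.75 ± 0.379 in FSC-A High compared with 1.63 ± 0.128 in FSC-A Low. Eif5a, which carries the modified residue hypusine and relieves stalled ribosomes, stood at 2113, 2090, 2167 and 1739 RPKM against 2004, 2250 and 1973. It was the most abundant member in both groups, rank 3 of all genes in FSC-A High and rank 1 in FSC-A Low, and the groups overlapped (-0.04, interval -0.26 to 0.19). After the length and GC correction it was called lower at -0.45 (adjusted p = 0.00427), the only member to gain a call that way.

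Of the 10 members known as TOP mRNAs, 6 were higher (Eef1a1, Eef1b2, Eef1d, Eef1g, Eif3e and Eif3h), 1 was lower (Eif4b) and 3 were not called (Eef2, Eif3f and Pabpc1). Their median was 0.62, and 0.18 after the length and GC correction, when Eef1b2 and Eef1g stayed called. Of the 28 other members, 7 were higher and 3 lower (median 0.13, or 0.06 with the trend removed). Among all genes tested, 15.6% were called higher and 11.7% lower, or 9.08% and 8.75% after the length and GC correction. The difference between these sets of members was not tested.

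In the unfractionated HSCs, levels were taken as CPM (reads scaled to the total of the library, the ribosomal RNA gene Rn45s set aside) per kb of transcript. Eef1a1 led the members with 5281, 6450, 6552 and 4457, a mean of 5685 ± 1001 (SD, n = 4), and was rank 2 of all genes. Eif5a followed at 2002 ± 852, then Eif3k at 813 ± 144 and Eif4a1 at 602 ± 133. The libraries of Eif5a and Eif3k did not overlap with each other, while those of Eif3k and Eif4a1 did. Pabpc4 (11.7 ± 5.08), Eif5b (19.6 ± 3.95) and Eif4g1 (21.6 ± 8.98) were lowest and overlapped among themselves. The rank order over the 38 genes resembled FSC-A High (Spearman's rho 0.757) and FSC-A Low (0.715) to a like degree, while the gated groups resembled each other more (0.891, n = 38 genes in each). These are descriptions over genes of 2 sets of files in different units.

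The ratio of Eif4a1 to Eif4a2 was 4.64 ± 2.39 in the unfractionated libraries, with a range from 1.95 to 7.78 that lay above FSC-A High throughout and took in FSC-A Low. The ratio of Eif3m to Eif3b was 3.61 ± 2.14, with a range from 1.55 to 6.27 that lay above FSC-A Low and took in FSC-A High. Both ratios varied more among the unfractionated libraries than within either gated group. The ratio of Eif4ebp1 to Eif4e was 2.26 ± 0.492 there, compared with 32.4 ± 12.6 in FSC-A High and with 20.3 ± 2.26 in FSC-A Low, which shows how far levels differ between the 2 sets of files.

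**Figure D5:**
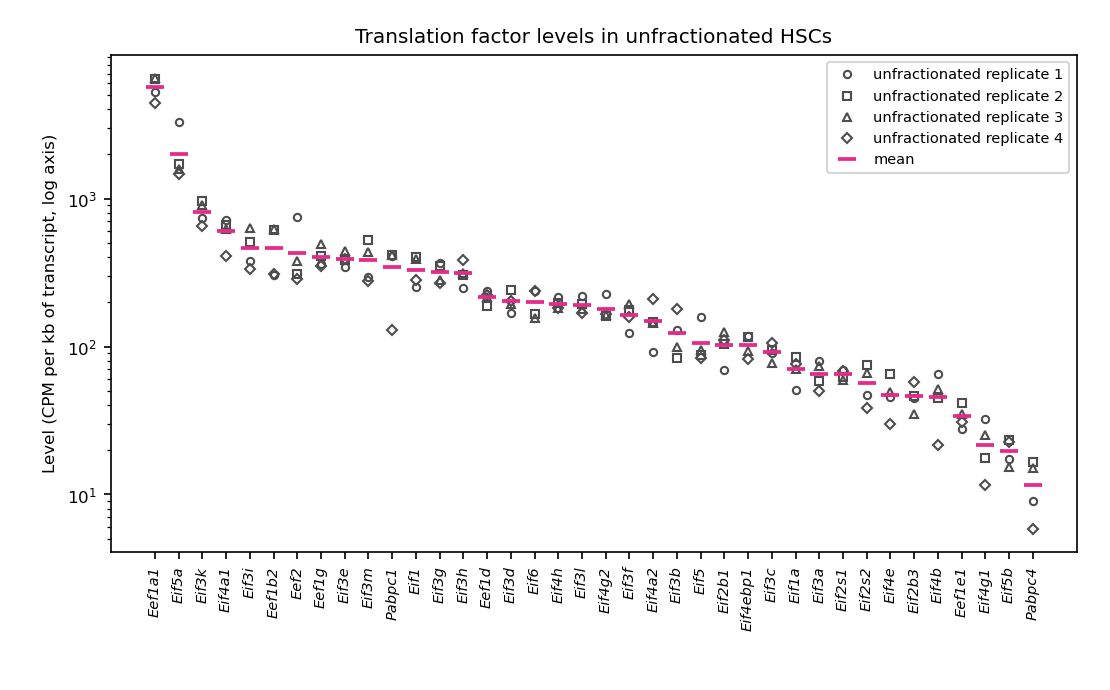
Level of each translation factor in the 4 unfractionated libraries (1 symbol per library) in CPM per kb of transcript on a log axis, ordered by the mean (pink bar). Eef1a1 and Eif5a stand above the rest, and replicate 4 of Pabpc1 lies far below the other 3.

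Other genes of the pathway were read from 5 further lists. Of all genes tested, 15.6% were called higher and 11.7% lower, or 27.3% in all. The called share was 25.9% of the other initiation genes and 25% of the other elongation genes, both near that background. It was 16.7% for termination and recycling, 50% for the kinases and phosphatase subunits of eIF2, and 7.69% for the mTORC1 list. Of 27 other initiation genes 5 were higher, 2 lower and 20 not called (median -0.02). The higher ones were Eif2b4 and Eif2b2 (above), Eif4e2, a relative of the cap-binding protein that represses translation, at 0.94 (SE 0.16, limma adjusted p = 0.00113), Eif4a3, the helicase of the exon junction complex, at 0.74, and Eif1ad at 0.83. The lower ones, named after their values were seen, were the scaffold gene Eif4g3 (-0.97) and the helicase gene Ddx3x (-1.18). After the length and GC correction Eif4a3 (0.39), Eif2b2, Eif4g3 (-0.57) and Ddx3x (-0.98, adjusted p = 0.0517) were not called, while Eif4e2, Eif1ad and Eif2b4 were. Eif1ax (0.68) then gained a call upwards and Eif1b (-0.68) a call downwards, both named after their values were seen.

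Of 8 tested genes of the elongation pathway outside the members, Eef1akmt1 (1.21) and Eef1akmt2 (0.93), which methylate eEF1A, were higher and 6 were not called (median 0.31). Neither of the 2 was called after the length and GC correction (0.50 and 0.20), while Eefsec, named after its value was seen, was called at 0.61. Of 6 termination and recycling genes, the ribosome rescue factor Pelo was higher and 5 were not called (median -0.27). Pelo stood at 2.19, 3.64, 8.16 and 4.53 RPKM against 1.49, 0.9395 and 0.962 (1.31), and its call was lost without FSC-A High replicate 3 (1.04) or FSC-A Low replicate 2 (1.24) or 3 (1.25). It was also lost after the length and GC correction (1.14, adjusted p = 0.0701).

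Of 6 genes for kinases that phosphorylate eIF2 and for the phosphatase subunits that reverse it, 3 were lower and 3 were not called (median -0.92, or -0.69 after the length and GC correction). Eif2ak3, the kinase of endoplasmic reticulum stress known as PERK, stood at 1.16, 1.18, 0.324 and 1.05 RPKM in FSC-A High and at 4.82, 6.63 and 2.92 in FSC-A Low. The groups were separate (-1.56, SE 0.35, limma adjusted p = 0.00580). Eif2ak4, the amino acid sensor known as GCN2, was at -1.25 and Ppp1r15b, a constitutive phosphatase subunit, at -1.12. After the length and GC correction Eif2ak3 was called (-1.22), while Eif2ak4 (-0.89, adjusted p = 0.0981) and Ppp1r15b (-0.76, adjusted p = 0.139) were not. The calls of Eif2ak4 and Ppp1r15b as deposited were also lost without FSC-A High replicate 2 or 3 or FSC-A Low replicate 1. Without the last, the values were -0.91 and -0.75. That of Eif2ak4 was lost without FSC-A Low replicate 3 as well (-1.18), and that of Ppp1r15b without FSC-A High replicate 1 (-1.13). The transcripts are long (median 4419 nt) and their levels low.

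Of 13 genes of mTORC1 and of kinases and repressors that act on translation factors, 1 was higher and 12 were not called (median -0.18). The higher gene was Pdcd4, which encodes an inhibitor of the eIF4A helicases, at 26.5, 29.0, 36.5 and 37.7 RPKM against 20.6, 17.2 and 20.5. All FSC-A High libraries were higher (0.70, SE 0.20, limma adjusted p = 0.0228). Its call was lost without FSC-A High replicate 3 (0.64) or 4 (0.62) or FSC-A Low replicate 2 (0.62), and after the length and GC correction (0.59, adjusted p = 0.0527). After that correction the median of the list was 0.13, and the S6 kinase genes Rps6kb1 (0.57, adjusted p = 0.0242) and Rps6kb2 (1.03, adjusted p = 0.00138), named after their values were seen, were called higher. As deposited they were at 0.36 and 0.60 and not called.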

How the data were processed

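Members and gene lists were chosen with earlier results of these data known. The deposited gated values, 1 for each RefSeq transcript, were taken as RPKM because their sum weighted by length matches what RPKM implies; RPKM and FPKM cannot be told apart. The deposited unfractionated signal behaves as read counts divided by a size factor: 100% of values became whole reads within 0.01, and these were expressed as CPM. STAR, DESeq2 and mm10 stand in the submitters' processing notes, without roles. Samples were grouped by title. Genes reaching 1 RPKM in 3 or more gated libraries were fitted on log2(RPKM + 1) with limma 3.58.1 (R 4.3.3; lmFit, eBayes with trend, group only) and called where the adjusted p (Benjamini-Hochberg) was below 0.05. Intervals are 95%. Gated depths were estimated from the step between low values. Lengths and GC contents were those of the GENCODE M21 transcripts that carry a file's RefSeq identifier, their trend being removed by a spline with 5 degrees of freedom. The value of Eif4g1 used the length of its other transcript. Named were all members, up to 4 called genes of each further list with the smallest p, and the genes that complete eIF2, eIF2B and eIF3. Deviations of same-numbered libraries from their group means correlated at -0.03, 0.06 and 0, and those of other pairs at -0.09 to 0.09. With so few libraries this check cannot exclude pairing. Alternatives covered scaling (edgeR 4.0.16 for TMM), pseudocount, filter, libraries, replicate block, trends, transcript choice, thresholds and weights. The fit was tested on simulated data. Tables and figures were made with Python 3.11.15, pandas 2.3.3, numpy 2.4.6, scipy 1.17.1 and matplotlib 3.10.9.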

Additional observations from a re-analysis of the deposited data

Results flagged for a closer look

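In 6 of the 76 groups of 4 libraries examined, 1 library lay far from the other 3, where chance alone is expected to flag about 1 group in 20. In FSC-A High, replicate 3 of Eif1a was at 21.7 RPKM, with the others at 35.5 to 37.8, and replicate 1 of Eif3i was at 136.4 RPKM, with the others at 182 to 184. In the unfractionated HSCs, replicate 1 was highest for Eif4g2 (224.8 CPM per kb, the others 161 to 165), Eif5 (158.3, the others 83.3 to 94.3) and Eif5a (3272, the others 1463 to 1700.0). Replicate 4 was lowest for Pabpc1, at 129.5 CPM per kb against 409 to 418. Rn45s took 15.3% of the reads in that library and 3.06% to 5.26% in the other 3. The part of that share in the Pabpc1 value was not tested.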

How the results depend on the processing

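The count of 13 members called higher became 8 with library total scaling, 6 with the length and GC trend removed, 5 with the replicate block and that trend removed, 3 with the expression level trend removed and 3 with a more than 2-fold change required. The count of 4 called lower became 11 with library total scaling, 7 with the expression level trend removed, 2 with the replicate block, 2 at an adjusted p below 0.01 and 2 at more than 2-fold. The cause of these shifts was not tested. Leaving out each library gave 10 to 13 higher and 3 to 5 lower. Values that changed sign against a call were Eif3g (-0.031) and Eef1a1 (-0.051), both with the expression level trend removed. Of the 17 calls, 13 held whichever 1 library was left out, and 4 (Eif3b, Eif3m, Eif4a1 and Eef1e1) held under all 22 refits. Of 21 uncalled members, 14 were called under no alternative. Over all genes, 1657 higher and 1245 lower became 980 and 2285 with library total scaling, 899 and 866 with length and GC removed, 662 and 644 with the replicate block added to that, 960 and 1055 with level removed, 1064 and 545 at 0.01, and 798 and 855 at more than 2-fold. With upper quartile scaling the share higher among all calls was 49.55%, and the median of all genes -0.12. Same-numbered libraries did not deviate together, and the replicate block gave 12 higher and 2 lower members. The smallest difference called among the members was that of Eif5, -0.45.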
